A study of Homo sapiens with 18 samples.

Results

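TEAD1, TEAD2, TEAD3 and TEAD4 are the DNA-binding factors at the end of the Hippo pathway, and YAP1 and WWTR1 (which encodes TAZ) are the coactivators they bind. In the active pathway a kinase cascade phosphorylates YAP and TAZ and holds them in the cytoplasm, and on stiff matrix or under tension they enter the nucleus and act on DNA through the TEAD factors. VGLL3 and VGLL4 bind the same surface of the TEAD factors, and VGLL4 is known as a competitor of YAP. CCN1 and CCN2 encode secreted matricellular proteins (CYR61 and CTGF), which are long-used target genes of YAP and TEAD, and in fibroblasts the pathway is known for its part in matrix production and the myofibroblast state.

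Chromatin accessibility at these 10 genes was examined in Ccd18-Co, an established line of human colon fibroblasts, by Omni-ATAC-seq, in which a transposase cuts open chromatin. The members were the consensus peaks that overlapped the body of 1 of the 10 genes or the 10 kb upstream of its start, which gave 273 of the 334857 peaks in the table. The 18 libraries were 6 from unstimulated cells, 6 from cells that had received cytokines and then DMSO, and 6 from cells that had received cytokines and then belinostat, an inhibitor of histone deacetylases. The study's text gives other doses of belinostat and IL-1β in places than the labels, whose doses are printed here. The cytokine mix held TNF, OSM and IL-17A at 10 ng/ml each and IL-1β at 0.1 ng/ml, and it was given in 3 pulses, with 72 h of exposure and then 96 h without cytokines in each. After 1 week of rest the cells received 250 nM belinostat or DMSO in serum-free medium for 5 days, and they were collected 2 weeks later. The study's methods keep the solvent constant over its treatment groups, but the labels do not say whether these unstimulated libraries came from cells given DMSO. If they did not, the cytokines and the solvent with its medium cannot be told apart in the difference between DMSO and unstimulated cells. All libraries came from 1 line, and the labels do not say that libraries of a group came from separate cultures, so p-values measure the spread between these libraries, which may be technical.

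Differences are named as follows: the cytokine contrast is DMSO minus unstimulated, the belinostat contrast is belinostat minus DMSO, and the residual contrast is belinostat minus unstimulated, so any 2 of them share a group. A peak is called opened or closed where its adjusted p (edgeR quasi-likelihood test, Benjamini-Hochberg over all peaks) was under 0.05, and levels are log2 CPM, the log2 of counts relative to the library total as CPM, after scaling by trimmed mean of M values (TMM).

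Libraries held 4661678 to 11352032 counts in peaks, with the belinostat libraries the shallowest (4661678 to 6370845). The 10000 strongest peaks took 36.8% ± 1.3 of the counts in unstimulated libraries, 33.1% ± 1.3 in DMSO libraries and 30.9% ± 2.2 in belinostat libraries (SD, n = 6 each). Because this share differed between the groups, the calls below are also given after loess offsets, which remove a trend of the fold change with abundance. They also remove any change that most peaks of like abundance share. Unstimulated replicate 6 stood apart, with 39.0% of its counts in the strongest peaks and 11.3% of all peaks at 0. The line showed fibroblast chromatin: the start peaks of all 6 fibroblast markers (COL1A1, COL1A2, COL3A1, PDGFRB, THY1 and VIM) ranked above 86.2% or more of all peaks. KRT8, PTPRC and CDH5 had no start peak, and CDH1, CD3E and PECAM1 averaged under 0 log2 CPM (above 2.44%, 18.3% and 33.8% of all peaks). But EPCAM, an epithelial marker, averaged 1.51 and ranked above 78.5% of all peaks, where the weakest fibroblast marker, COL3A1, averaged 2.28.

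Letters of a few regions are shown first, as examples of the TEAD and AP-1 words that are counted over all members below. The word GGAATG (or its reverse complement CATTCC) is the core that TEAD factors prefer, TGANTCA is the word of AP-1 factors, and both were searched on both strands. All capitals mark these words. The first sequence is the 250 bases before the RefSeq start of CCN2 (GRCh38.p14, chr6:131951373-131951622, minus strand, read in the direction of the gene), which lie almost wholly inside the CCN2 start peak and hold 3 TEAD words. Of 35116 RefSeq promoters, 11.9% hold the word in these 250 bases and 0.0826% hold 3 or more. The other sequences are the central 300 bases of peaks on the plus strand of hg38. This window reaches past both ends of a narrower peak. The first is at a CCN2 upstream peak, where a TEAD word and an AP-1 word abut (chr6:131954755-131955054), and it extends slightly beyond that peak. The next is at a VGLL4 intronic peak with 2 TEAD words and 1 AP-1 word (chr3:11603751-11604050). Both peaks were closed in the cytokine contrast. The last is at a WWTR1 intronic peak closed in the belinostat contrast (chr3:149553885-149554184).
CCN2 promoter: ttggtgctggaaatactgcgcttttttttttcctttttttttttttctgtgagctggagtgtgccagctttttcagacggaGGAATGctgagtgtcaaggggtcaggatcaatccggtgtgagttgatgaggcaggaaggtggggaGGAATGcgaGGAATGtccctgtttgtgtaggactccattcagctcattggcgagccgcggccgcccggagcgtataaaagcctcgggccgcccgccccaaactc
CCN2 upstream peak: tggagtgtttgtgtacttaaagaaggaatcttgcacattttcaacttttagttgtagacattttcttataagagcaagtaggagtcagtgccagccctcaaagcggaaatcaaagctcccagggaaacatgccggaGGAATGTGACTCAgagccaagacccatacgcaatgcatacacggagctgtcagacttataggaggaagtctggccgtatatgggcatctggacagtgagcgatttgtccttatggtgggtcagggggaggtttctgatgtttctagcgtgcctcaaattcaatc
VGLL4 intronic peak: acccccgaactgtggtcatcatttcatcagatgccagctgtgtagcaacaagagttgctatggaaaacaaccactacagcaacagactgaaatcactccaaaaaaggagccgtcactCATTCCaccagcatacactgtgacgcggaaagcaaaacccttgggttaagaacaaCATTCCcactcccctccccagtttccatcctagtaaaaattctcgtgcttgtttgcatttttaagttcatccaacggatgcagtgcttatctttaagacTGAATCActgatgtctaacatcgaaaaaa
WWTR1 intronic peak: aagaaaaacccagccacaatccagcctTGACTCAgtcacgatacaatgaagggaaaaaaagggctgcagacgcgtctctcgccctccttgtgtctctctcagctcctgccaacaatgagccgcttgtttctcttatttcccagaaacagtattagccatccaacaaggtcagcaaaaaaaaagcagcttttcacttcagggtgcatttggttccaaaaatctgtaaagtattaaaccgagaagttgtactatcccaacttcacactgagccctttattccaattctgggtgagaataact
The intronic WWTR1 peak holds 1 AP-1 word and no TEAD word in this window.

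The 273 peaks were spread unevenly over the genes. TEAD1 (chr11:12674421-12944737) held 81, VGLL4 (chr3:11556069-11771350) 52, WWTR1 (chr3:149517235-149736714) 38, TEAD4 (chr12:2959330-3040676) 28, YAP1 (chr11:102110447-102233424) 25 and VGLL3 (chr3:86876388-86991149) 19. The smaller genes TEAD3 (chr6:35473597-35497079), CCN1 (chr1:85580761-85584589), TEAD2 (chr19:49340595-49362457) and CCN2 (chr6:131948176-131951372) held 12, 8, 7 and 3. Of all members 215 lay in introns, 42 overlapped exons and 16 lay upstream. In 13 cases the peak also overlapped another protein-coding gene (DDAH1 upstream of CCN1, TULP1 upstream of TEAD3, and DKKL1 or CD37 at TEAD2), and all 3 CCN2 peaks also lay in the non-coding gene LINC01013, so counts there cannot be assigned to 1 gene.

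All 10 genes had an open start in unstimulated cells. Per kb of peak, the start peak of WWTR1 stood at 44 ± 2.3 CPM (SD, n = 6), that of CCN1 at 43.7 ± 6.1, that of TEAD4 at 38.9 ± 3.0 and that of TEAD3 at 37.0 ± 3.7. VGLL3 (28.7 ± 2.6), TEAD1 (28.6 ± 2.8), CCN2 (28.2 ± 2.7), TEAD2 (26.1 ± 3.8), VGLL4 (25.5 ± 1.8) and YAP1 (22.4 ± 1.9) followed. Neighbours in this order overlapped in their range over libraries except at the step from TEAD3 to VGLL3, and the highest libraries of TEAD1 and CCN2 (33.1 and 33.5) also reached the lowest of TEAD3 (33.0). In DMSO cells the CCN1 start fell to 26.7 ± 3.6 and that of WWTR1 to 33.9 ± 4.8, and YAP1 stayed at the bottom with 16.7 ± 1.1.

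After the cytokine pulses the loci of all 10 genes were less accessible than in unstimulated cells, as summed over the peaks of each gene. The differences ran from 29.6% lower at CCN1 (log2 fold change -0.51 ± 0.12, SE) and 27.8% lower at CCN2 (-0.47 ± 0.11) to 13.1% lower at TEAD1 (-0.20 ± 0.06), with adjusted p from 0.00034 to 0.0059. The cofactor loci VGLL3 and VGLL4 stood at -0.44 ± 0.11 and -0.40 ± 0.08, the coactivator loci YAP1 and WWTR1 at -0.26 ± 0.08 and -0.29 ± 0.07, and TEAD2, TEAD3 and TEAD4 at -0.30, -0.26 and -0.27. The count of 10 of 10 has to be read against the background: 62.5% of the 19188 protein-coding loci were called lower and 10.9% higher, and the median of all loci was -0.26 against -0.30 over the members. The 6 fibroblast markers were also all lower, by -0.33 to -0.45.

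In single libraries the CCN1 locus ranged from 7.11 to 7.51 log2 CPM (median 7.18) in unstimulated cells, from 6.32 to 6.92 (median 6.83) after cytokines and DMSO, and from 6.13 to 7.09 (median 6.76) after belinostat. No DMSO library reached the lowest unstimulated one. The CCN2 locus behaved alike, with 6.19 to 6.58 (median 6.28) in unstimulated, 5.49 to 6.15 (median 5.86) in DMSO and 5.53 to 6.38 (median 5.89) in belinostat libraries. Groups of the cytokine contrast did not overlap at 8 of the 10 loci, the exceptions being TEAD2 and TEAD3. They also did not overlap at the loci of the fibroblast markers COL1A1, COL1A2, COL3A1, PDGFRB, THY1 and VIM. In this contrast 62.5% of all loci were called lower, and the share of all loci without overlap was not computed.

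**Figure D1:**
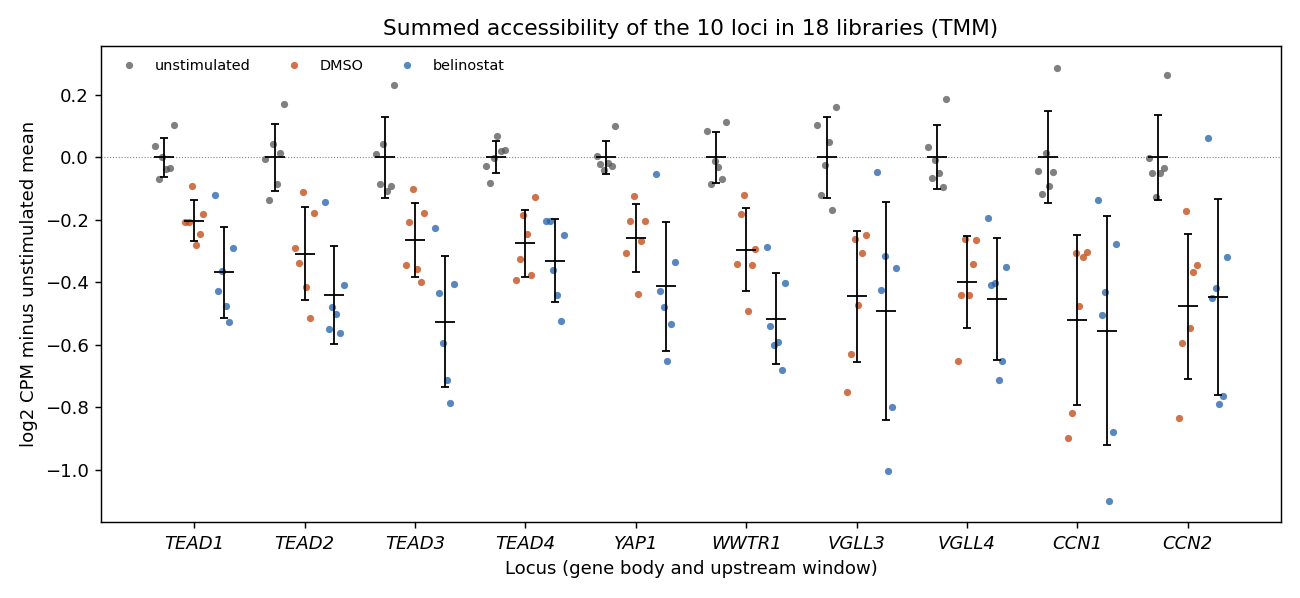
Summed log2 CPM of each of the 10 loci in every library, less the mean of the 6 unstimulated libraries of that locus (y axis, log2 units). Each point is a library, black marks are the mean and SD of a group (n = 6), and the DMSO and belinostat means lie below 0 at all 10 loci.

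Loess offsets centre each library on loci of like abundance, so a fall common to most loci is removed by construction. The all-locus median, -0.02, was thus held near 0. With these offsets 4 of the 10 loci had a fold change above 0. Still lower were 2: VGLL4 at -0.12 (adjusted p = 0.015) and CCN2 at -0.18 (adjusted p = 0.049). CCN1 kept a larger value, -0.21, without passing (adjusted p = 0.067), and TEAD1 was called higher at 0.08 (adjusted p = 0.035). Under these offsets 8.63% of all loci were called lower and 14.0% higher.

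Peak by peak, the cytokine contrast closed 43 of the 273 members (15.8%) and opened 13 (4.76%), where 9.73% of all peaks were closed and 9.51% opened. VGLL4 had 12 closed peaks, TEAD1 and WWTR1 6 each, CCN1 5 of its 8, VGLL3 and TEAD3 4 each, and CCN2 all 3. The closed peaks were strong, with a median of 3.55 log2 CPM, and all 13 opened peaks were weak, none above 0.42. Above 3 log2 CPM, 28 of 42 members were closed (66.7%), and so were 66.4% of the 29745 peaks of that strength in the whole table. Up to 0 log2 CPM, none of 63 members was closed and 6 were opened (9.52%, against 11.9% of all such peaks). Without unstimulated replicate 1, 3 or 6 the opened count was 7, 8 or 6, and without DMSO replicate 4 or 5 it was 7 or 8, while the closed count stayed at 31 or more without any 1 library. Shares of all peaks in those fits are not given here.

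**Figure D2:**
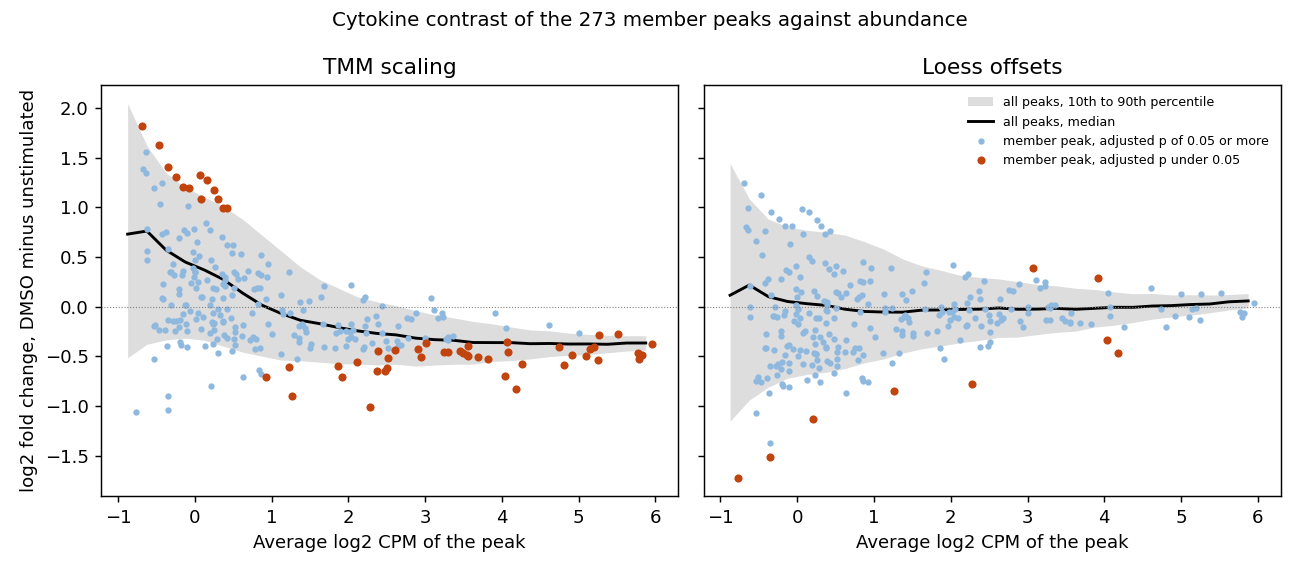
Log2 fold change of DMSO over unstimulated cells (y axis) against the average log2 CPM of a peak (x axis) for the 273 member peaks, with TMM scaling at left and loess offsets at right. The line is the median and the grey band the 10th to 90th percentile of all peaks in steps of abundance, red points passed the test, and with TMM the members follow the downward line, while with loess 9 pass.

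With loess offsets 7 members were closed (2.56%) and 2 opened (0.733%), against 1.92% and 1.99% of all peaks, and 4 closed peaks passed under both scalings. They lay in VGLL3, WWTR1, CCN1 and VGLL4.

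The VGLL3 peak at chr3:86937207-86937995, which overlaps an exon 53.5 kb downstream of the start, ranged from 4.25 to 4.84 log2 CPM (median 4.58) in unstimulated and from 2.66 to 4.14 (median 3.92) in DMSO libraries. The groups did not overlap, and the peak fell by 43.6% (log2 fold change -0.83 ± 0.13, SE, adjusted p = 3.5e-06). With loess offsets it was -0.47 (adjusted p = 0.0015). The belinostat libraries lay at 3.03 to 4.45 and overlapped both other groups, with a median (4.30) between theirs, and their difference from DMSO was 0.30 ± 0.14 (adjusted p = 0.28), which passed with loess offsets (0.44, adjusted p = 0.012).

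An intronic WWTR1 peak 91.4 kb downstream of the canonical start (chr3:149566288-149566962) fell by 50.2% (log2 fold change -1.01 ± 0.17, adjusted p = 5.2e-06). Unstimulated libraries were tightly placed at 2.79 to 2.91 log2 CPM and the DMSO libraries spread from 1.20 to 2.41, with no overlap. With loess offsets the value was -0.78 (adjusted p = 0.00050). Belinostat libraries (1.19 to 2.17, median 1.78) stayed near the DMSO ones (median 1.81).

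The CCN1 start peak (chr1:85580577-85581076), at the promoter and first exon of this target gene, went from 4.17 to 4.76 log2 CPM (median 4.46) in unstimulated to 3.41 to 3.96 (median 3.82) in DMSO libraries. It fell by 38.5% (log2 fold change -0.70 ± 0.12, adjusted p = 1.6e-05), with a loess value of -0.34 (adjusted p = 0.0094). It passed in all 20 alternative fits. The belinostat contrast there was -0.01 ± 0.13 (adjusted p = 0.97). The fourth peak that passed under both scalings lay in a VGLL4 intron 7.6 kb from the start (chr3:11636115-11636558) and was named after its values were seen, at -0.90 with TMM and -0.85 with loess (adjusted p = 0.0029 and 0.015).

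The other start peaks had smaller fold changes. Of the 10 start peaks 9 were closed with TMM, all except TEAD2 (-0.35, adjusted p = 0.089), and only that of CCN1 with loess offsets, which gave values from -0.34 to 0.14. All but the TEAD2 start peak averaged above 3 log2 CPM, where 66.4% of all peaks were closed with TMM. The median fold change of all peaks near 5.1 log2 CPM was -0.37. The CCN2 start peak (chr6:131949259-131951619), which meets the promoter printed above, ranged from 5.96 to 6.31 in unstimulated and 5.30 to 5.87 in DMSO libraries (-0.47 ± 0.10, adjusted p = 0.00085, but -0.05 and 0.60 with loess). The upstream CCN2 peak that holds abutting TEAD and AP-1 words (chr6:131954766-131955044) stood at -0.43 (adjusted p = 0.034), and the VGLL4 intronic peak with 2 TEAD words (chr3:11603603-11604199) at -0.58 (adjusted p = 0.00030). Neither passed with loess offsets (adjusted p = 0.57 and 0.12).

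The TEAD4 start peak (chr12:2958482-2960319) gave -0.53 ± 0.10 (adjusted p = 0.00016), that of TEAD1 (chr11:12673788-12675267) -0.50 ± 0.11 (adjusted p = 0.00069), that of VGLL4 (chr3:11643565-11644175) -0.50 ± 0.13 (adjusted p = 0.0028) and that of YAP1 (chr11:102109849-102111756) -0.42 ± 0.11 (adjusted p = 0.0031). Those of VGLL3 (chr3:86990279-86991821) and WWTR1 (chr3:149657408-149659109) stood at -0.41 ± 0.11 and -0.38 ± 0.10. That of TEAD3 (chr6:35496179-35497644) was at the threshold, -0.27 ± 0.10 with an adjusted p of 0.0497. At VGLL4 the smallest p belonged to another of its starts, 75.7 kb upstream of the canonical one (chr3:11718385-11720895), at -0.53 ± 0.11 (adjusted p = 0.00016). At TEAD3 it belonged to an intronic peak (chr6:35490037-35490826), at -0.46 ± 0.12 (adjusted p = 0.0037), and at TEAD2 to an exonic peak that also lies in DKKL1 (chr19:49361401-49361864), at -0.36 ± 0.14 (adjusted p = 0.049).

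Belinostat closed 11 members and opened none. This is 4.03% of the members, against 1.75% of all peaks closed and 0.607% opened, and 5 of the 11 lay in WWTR1, 4 in TEAD1 and 1 each in TEAD3 and VGLL3. Calls rose with strength: above 3 log2 CPM 7 of 42 members were closed (16.7%, against 9.83% of all such peaks), from 1 to 3 log2 CPM 4 of 74 (5.41%, against 3.99%), and none of the weaker members. At an unadjusted p under 0.05, 35 members were lower and 13 higher, where 25729 and 27502 of all 334857 peaks were. The median of all members was -0.09, against 0.01 over all peaks. The current quasi-likelihood method of edgeR called 1 member opened and DESeq2 none. The closed count was 6, 7 and 6 without DMSO replicate 2, 3 or 6, 6 without belinostat replicate 3, and 16 without belinostat replicate 1. Shares of all peaks in these fits without 1 library are not given here. With loess offsets 8 members were closed and 3 opened (2.93% and 1.10%), against 1.50% and 0.950% of all peaks, and the 8 were all among the 11.

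Among the 11 closed peaks the fold change was lowest beside an upstream start of WWTR1, in a peak centred 45.7 kb upstream of the canonical start. This peak ranged from 1.57 to 2.68 log2 CPM (median 2.22) in unstimulated, from 1.38 to 3.14 (median 2.19) in DMSO and from 0.12 to 1.36 (median 0.94) in belinostat libraries. All 6 belinostat libraries lay below all 6 DMSO and all 6 unstimulated ones. The fold change over DMSO was -1.62 ± 0.23 (adjusted p = 9.4e-08), a 3.07-fold fall, and rested on 226 DMSO and 60 belinostat counts in all. The cytokine contrast there was 0.22 ± 0.18 (adjusted p = 0.40) and the residual contrast -1.40 (adjusted p = 1.1e-06).

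Its neighbour (chr3:149702788-149703434) contains that start, which RefSeq places at position 149703273. It ranged from 3.15 to 3.70 in unstimulated, from 2.98 to 3.76 in DMSO and from 2.26 to 2.78 in belinostat libraries, so that the belinostat group again lay apart. The fold change was -0.85 ± 0.15 (adjusted p = 2.3e-05) and the cytokine contrast -0.10 ± 0.13 (adjusted p = 0.62). Both peaks passed in all 20 alternative fits, with highest adjusted p of 0.00094 (DESeq2) and 0.0038 (scaling on the weaker peaks). The peak at the canonical start was stronger (5.33 to 6.09 in belinostat and 5.63 to 6.19 in DMSO libraries) and gave -0.13 ± 0.11 (adjusted p = 0.54), and no test compared the starts with each other.

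A further 3 WWTR1 peaks lay downstream of the canonical start, inside the gene. The one 104.0 kb downstream (chr3:149553556-149554513), which holds the AP-1 word printed above, ranged from 3.09 to 3.84 in DMSO and from 2.31 to 3.12 in belinostat libraries, with a slight overlap. It stood at -0.80 ± 0.15 (adjusted p = 7.1e-05) and passed in all 20 alternative fits. The others, at chr3:149581520-149582244 (-0.62 ± 0.16, adjusted p = 0.012) and chr3:149575452-149576612 (-0.38 ± 0.11, adjusted p = 0.047), passed in 16 and 8 of the 20. Summed over all 38 peaks the WWTR1 locus was 14.3% lower, which did not pass (-0.22 ± 0.07, adjusted p = 0.085).

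**Figure D3:**
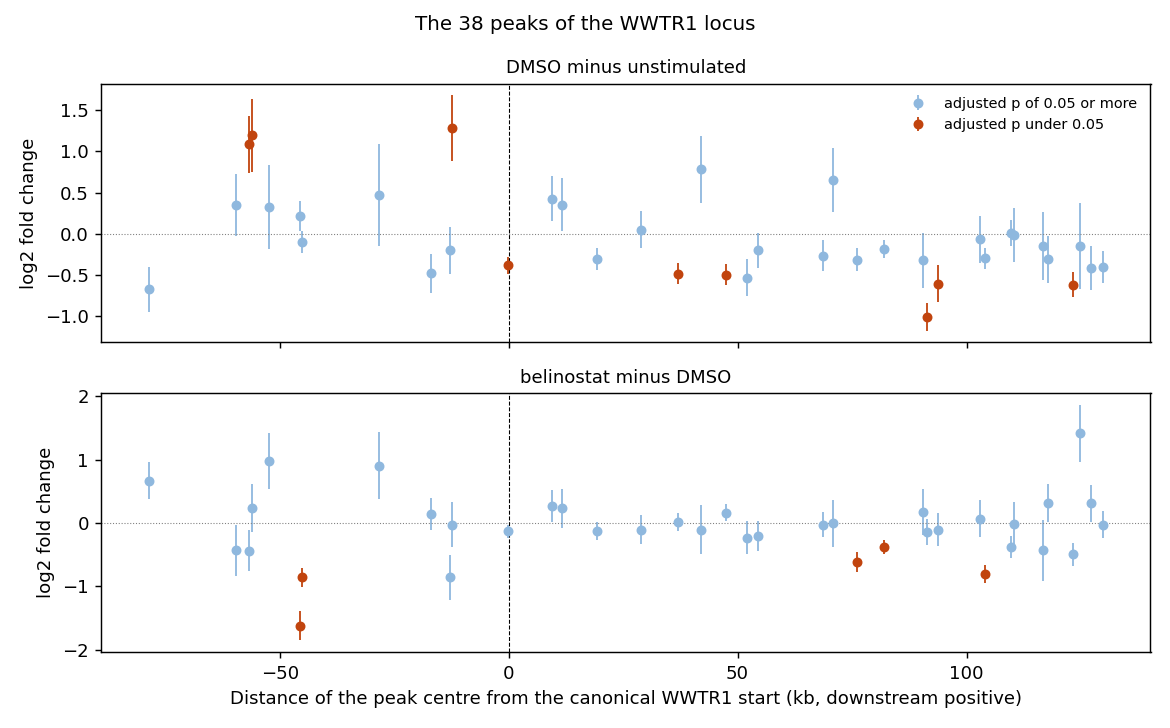
Log2 fold change with its SE of the 38 WWTR1 peaks (y axis) against the distance of the peak centre from the canonical start in kb (x axis, downstream positive), in the cytokine contrast (upper panel) and the belinostat contrast (lower panel). Red points passed the test, and the lowest belinostat value among them, -1.62, stands 45.7 kb upstream.

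TEAD1 carried 4 intronic peaks that closed with belinostat, 91.3 to 171.6 kb into the gene. That with the smallest p (chr11:12765469-12765946) ranged from 2.57 to 3.38 log2 CPM in unstimulated, from 2.36 to 2.66 in DMSO and from 1.28 to 2.07 in belinostat libraries, so that it was lower in DMSO than in unstimulated cells and lower again after belinostat. The fold changes were -0.51 ± 0.15 in the cytokine contrast (adjusted p = 0.010, lost with library totals, with loess offsets and without unstimulated replicate 6) and -0.77 ± 0.18 in the belinostat contrast (adjusted p = 0.0046), and the latter passed in all 20 alternative fits. The other 3 stood at -0.57, -0.48 and -0.74 (chr11:12809856-12810534, chr11:12814806-12815418 and chr11:12845686-12846357) with adjusted p of 0.014, 0.044 and 0.032, and passed in 16, 8 and 11 of the 20.

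The TEAD3 upstream peak that closed (chr6:35497697-35498240) also lies in TULP1. It ranged from 5.07 to 5.44 in DMSO and from 4.52 to 5.11 in belinostat libraries (-0.46 ± 0.11, adjusted p = 0.0066) and was the strongest of the 11, at an average of 5.26 log2 CPM. An intronic VGLL3 peak (chr3:86922922-86923560) ranged from 1.36 to 2.26 in DMSO and from 0.66 to 1.41 in belinostat libraries (-0.78 ± 0.22, adjusted p = 0.031), and passed in 13 of 20 alternative fits. The 7 closed peaks beyond those with the smallest p of a gene were named after their values were seen.

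**Figure D4:**
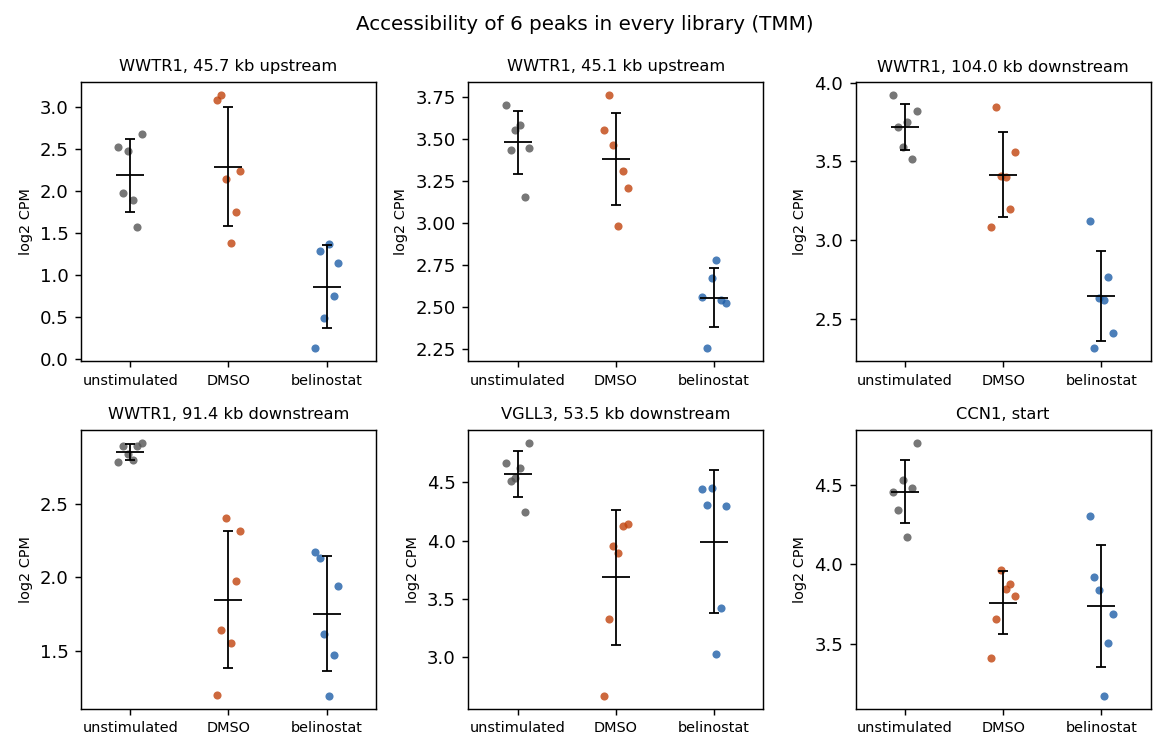
Log2 CPM (y axis) of 6 peaks in every library by group (x axis), named by gene and by distance from the canonical start, with the mean and SD in black (n = 6). In the WWTR1 panels at 45.7 and 45.1 kb upstream the belinostat libraries lie below all others, and in the VGLL3, CCN1 and 91.4 kb WWTR1 panels the DMSO libraries lie below the unstimulated ones.

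At the other genes no peak passed in the belinostat contrast. The smallest adjusted p was 0.056 at YAP1, in an intronic peak 28.9 kb from the start (chr11:102139076-102139590), where the 6 belinostat libraries (2.68 to 2.89) lay below the 6 DMSO libraries (2.92 to 3.64). It was 0.060 at VGLL4 (chr3:11561303-11561929, -0.60 ± 0.19), where the groups also did not overlap. It was 0.18 at TEAD4 (chr12:3007036-3007213, 1.10 ± 0.44), in a weak peak with 19 DMSO and 34 belinostat counts in all, 0.27 at TEAD2 (chr19:49340595-49340759, 0.60 ± 0.28, which also lies in CD37), 0.35 at CCN1 (chr1:85581586-85581745, -0.30 ± 0.16) and 0.50 at CCN2 (chr6:131954493-131954664, 0.28 ± 0.20). With loess offsets the peaks opened by belinostat were the CCN2 start peak (0.21, adjusted p = 0.012), the VGLL3 peak described above and a VGLL4 intronic peak (chr3:11600337-11600975, 0.28, adjusted p = 0.0029).

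As whole loci, none of the 10 genes was called higher or lower after belinostat, where 2.04% of all loci were lower and 0.125% higher by the edgeR test. At an unadjusted p under 0.05 stood WWTR1, TEAD3 (-0.26 ± 0.08, adjusted p = 0.088) and TEAD1 (-0.16 ± 0.06, adjusted p = 0.15), all lower, and DESeq2 called 1 locus lower. Without belinostat replicate 1, 4 loci were called lower: TEAD1, TEAD3, YAP1 and WWTR1. Without DMSO replicate 4 WWTR1 alone was called. Shares of all loci in these fits without 1 library are not given here, so the counts cannot be set against them. With loess offsets TEAD3 was lower (-0.13, adjusted p = 0.038), against 2.63% of all loci lower and 2.64% higher.

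Against unstimulated cells, the cells given cytokines and belinostat had 74 closed members (27.1%) and 14 opened (5.13%), where 13.7% of all peaks were closed and 16.8% opened. All 10 loci were lower, by 20.5% at TEAD4 to 30.7% at CCN1, and 66.8% of all loci were lower and 13.0% higher. With loess offsets 24 members were closed and 3 opened, against 4.93% and 3.81% of all peaks, and 2 loci stayed lower, TEAD3 (-0.10, adjusted p = 0.029) and WWTR1 (-0.11, adjusted p = 0.020), against 18.4% of all loci lower and 20.5% higher. The belinostat libraries of the CCN1 and CCN2 loci overlapped those of DMSO, and their fold changes over DMSO were -0.02 ± 0.12 and 0.04 ± 0.11.

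A list of 18 other Hippo pathway genes, called cascade genes here, includes VGLL1 and VGLL2, which are cofactors like VGLL3 and VGLL4. Among the 18 the cytokine contrast left 14 lower and 1 higher. WWC1, which encodes the scaffold KIBRA that activates the kinases, rose by 0.48 ± 0.07 (adjusted p = 6.2e-05; 0.77 with loess offsets), from 5.08 to 5.52 log2 CPM in unstimulated to 5.77 to 5.94 in DMSO libraries with no overlap. PTPN14, a phosphatase that binds YAP, fell by 0.43 ± 0.08 (adjusted p = 0.00036), and stood at -0.14 with loess offsets (adjusted p = 0.024). Of 21 other known target genes of YAP and TEAD 19 were lower and none higher, where 62.5% of all loci were lower. ANKRD1, a cardiac and stromal stress gene, fell most among those named, by 0.77 ± 0.15 (adjusted p = 0.00034), and GADD45A and MYOF fell by 0.47 ± 0.08 and 0.45 ± 0.09. With loess offsets ANKRD1, GADD45A and MYOF stood at -0.50, -0.18 and -0.17 (adjusted p = 0.0049, 0.0025 and 0.013). The medians were -0.27 for the cascade and -0.33 for the target genes, beside -0.26 over all loci, and with loess offsets 0.02 and -0.05 beside -0.02. Under those offsets 1 cascade gene was higher and 2 lower, and 1 target gene was higher and 7 lower, where 8.63% of all loci were lower and 14.0% higher.

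In the belinostat contrast 1 gene of each list passed, where 0.125% of all loci were higher and 2.04% lower. ANKRD1 was higher (0.64 ± 0.15, adjusted p = 0.021), at 4.94 to 6.03 log2 CPM in belinostat against 3.96 to 5.30 in DMSO libraries, near the unstimulated range of 5.43 to 5.88. VGLL1, a further TEAD cofactor, was lower (-0.50 ± 0.13, adjusted p = 0.032), at 2.74 to 3.33 against 3.35 to 3.95 with no overlap. With loess offsets 5 target genes were higher and none lower, and 2 cascade genes (STK3 and VGLL1) were lower and none higher, where 2.64% of all loci were higher and 2.63% lower. Against unstimulated cells 15 cascade genes and 18 target genes were lower, where 66.8% of all loci were. With loess offsets none of the cascade genes and 3 target genes were lower, and 2 and 3 were higher, where 18.4% of all loci were lower and 20.5% higher. WWC1 was higher (0.59 ± 0.07, adjusted p = 3.2e-07), and the lower genes included GADD45A (-0.55 ± 0.08, adjusted p = 1.4e-06), STK3 (-0.45 ± 0.07, adjusted p = 2.4e-06) and ARHGEF17 (-0.41 ± 0.07, adjusted p = 4.6e-06). With loess offsets GADD45A stood at -0.13 (adjusted p = 0.017), and STK3 (-0.04, adjusted p = 0.29) and ARHGEF17 (-0.002, adjusted p = 0.97) did not pass.

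The TEAD word stood in the central 300 bases of 74 of the 273 members (27.1%), and of 21.3% of all peaks, and the AP-1 word in 59 (21.6%), against 17.8%. In this window CCN1 had the TEAD word most often, in 6 of its 8 peaks, then CCN2 in 2 of 3. The remaining CCN2 peak, its start peak, is 2361 bp wide. It has no TEAD word in its central 300 bases, but it takes in the 3 TEAD words of the promoter printed above. The YAP1 start peak likewise has none in the window and 1 in the promoter. Of the 43 members closed in the cytokine contrast 17 held the TEAD word (39.5%), where 25.3% of all closed peaks did. Of the 11 closed by belinostat 1 held the TEAD word and 4 the AP-1 word, shares of 9.09% and 36.4%, where the shares over all 5865 peaks closed by belinostat were 17.9% and 38.3%. Among the 2034 peaks of the whole table that belinostat opened, 41.4% held the TEAD word, and none of those peaks was a member. The window of 300 bases takes in flanking bases of narrower peaks, and the median width was 275 bp over all peaks and 317 bp over the members. These are counts of letters, and binding was not measured.

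The members within 500 bp of an annotated start of their gene were 36, with a median width of 548 bp, a median level of 3.14 log2 CPM and a median GC content of 55.8% in the central window. The other 237 had 296 bp, 0.50 log2 CPM and 45.7%. In the cytokine contrast 18 of the 36 were closed (50%) and 25 of the 237 (10.5%), and in the belinostat contrast 3 (8.33%) and 8 (3.38%), the 3 all being WWTR1 peaks. Above 3 log2 CPM, 66.4% of all peaks were closed in the cytokine contrast and 9.83% in the belinostat contrast. Shares over all peaks near a start were not computed.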

How the data were processed

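The table deposited by the authors holds unnormalized fragment counts per consensus peak and library. The authors ran the ENCODE ATAC-seq pipeline on hg38, called peaks with MACS2, merged them over conditions and counted fragments with csaw, and for their own tests normalized on background bins. Such bins of reads were not used here, so background that differs between libraries can pass into the counts. File starts count from 0 and are printed counted from 1.

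Tests used edgeR 4.0.16 under R 4.3.3 (glmQLFit and glmQLFTest, earlier quasi-likelihood method, TMM factors from peaks, 1 mean per group over all 18 libraries), with Benjamini-Hochberg adjustment over 334857 peaks, and after summing per gene over 19188 protein-coding genes of GENCODE release 44. Log2 CPM used a prior count of 2. The SE of a log2 fold change is its absolute value divided by the square root of the F statistic of its test. The steps were tested on simulated data. Alternatives were library totals, TMM over 10 kb bins, TMM over the weaker 50% of peaks, loess offsets (span 0.3), peaks above 0 log2 CPM, DESeq2 1.42.0, the current edgeR method, a replicate block, a 3 kb window and leaving out each library. In each locus the text names the start peak (strongest within 500 bp of the canonical start) and the peaks with the smallest p in the cytokine and the belinostat contrast, and of the other pathway genes at most the 4 with the smallest p per direction and contrast. RefSeq promoters (GRCh38.p14) matched 7 of the 10 genes. The members and lists were chosen with earlier results of these data known. No pair of libraries was a duplicate by a chi-square comparison of counts (lowest ratio to its degrees of freedom 1.03, highest 2.46). A gene that the rule would name and a sequence are not reported here.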

Additional observations from a re-analysis of the deposited data

Results flagged for a closer look

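In 9 of 105 groups of 6 libraries tested, over the loci and the named peaks, 1 library lay far from the other 5 by Dixon's criterion, and chance alone flags about 1 in 20 groups. Unstimulated replicate 6, the library with 11.3% of peaks at 0, was high at the YAP1 locus (6.88 log2 CPM, others 6.74 to 6.78), the CCN1 locus (7.51, others 7.11 to 7.24), the CCN2 locus (6.58, others 6.19 to 6.32), the TEAD3 upstream peak (5.94, others 5.38 to 5.56) and the CCN2 start peak (6.31, others 5.96 to 6.07), and low at the weak TEAD2 peak in CD37 (0.13, others 0.78 to 1.05). Belinostat replicate 1 was high at the TEAD2 locus (5.90, others 5.48 to 5.63) and at the YAP1 start peak (5.47, others 4.76 to 4.91). Belinostat replicate 6 was high at the TEAD2 peak in DKKL1 (3.08, others 2.61 to 2.77).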

How the results depend on the processing

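Counts moved with the scaling, the filter and single libraries. Closed members of the cytokine, belinostat and residual contrasts numbered 43, 11 and 74 with TMM, 20 (cytokine) and 35 (residual) with library totals, 110, 6 and 135 with TMM over the weaker 50% of peaks, and 7 (cytokine) and 24 (residual) with loess offsets. Over all 334857 peaks, the closed numbered 32570, 5865 and 45962 with TMM, and 83811, 3325 and 102230 with the weaker peaks. They numbered 10894 (cytokine) and 21124 (residual) with library totals, and 6421 and 16513 with loess offsets. Opened members, 13, 0 and 14 with TMM, numbered 24 (cytokine) and 38 (residual) with library totals, 0 in both with the weaker peaks, and 2, 3 and 3 with loess offsets. Over all peaks, the opened numbered 31861, 2034 and 56111 with TMM, and 54265 (cytokine) and 101897 (residual) with library totals. They numbered 7584 and 9267 with the weaker peaks, and 6656, 3181 and 12745 with loess offsets. Testing peaks above 0 log2 CPM gave 7 opened (cytokine), 19 closed (belinostat) and 6 opened (residual), DESeq2 gave 4 opened and 27 closed (cytokine), and the current edgeR method gave 1 opened (belinostat). Over all peaks tested in these fits, the same counts were 17406, 6726 and 25293 (of 200098), 15215 and 18587 (of 334853), and 2741. Lower loci, 10, 0 and 10 with TMM, numbered 4, 2 and 6 with library totals and 2, 1 and 2 with loess offsets, which also gave 1 higher locus (cytokine), and DESeq2 gave 1 lower locus (belinostat). Of all 19188 loci, the lower numbered 12002, 391 and 12810 with TMM, and 3714, 615 and 5652 with library totals. They numbered 1656, 504 and 3527 with loess offsets, with 2678 higher (cytokine), and 610 with DESeq2 (belinostat). The median of all peaks moved from 0.13 to 0.34 with library totals and to -0.29 with the weaker peaks in the cytokine contrast. Without 1 library at a time, the counts ranged from 6 to 13 opened and 31 to 49 closed (cytokine), 0 to 1 and 6 to 16 (belinostat) and 10 to 16 and 59 to 88 (residual), and lower loci from 0 to 4 (belinostat), staying at 10 in the others. Counts over all peaks and all loci in those fits are not given here.

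Log2 fold changes of loci changed sign in 5 of 210 fits of the cytokine contrast, where all 10 loci had passed with TMM, and in 20 of 210 of the belinostat contrast, where none had. In the former TEAD1 was at 0.013 with library totals and 0.081 with loess offsets, and TEAD3, TEAD4 and YAP1 at 0.028, 0.019 and 0.035 with loess offsets. In the latter library totals gave TEAD4 0.029, VGLL3 0.044, VGLL4 0.033 and CCN1 0.052, and loess offsets gave 0.074, 0.087, 0.066 and 0.095. CCN2 was at -0.055 with TMM over the weaker peaks. Over single left-out libraries VGLL3 ranged from -0.13 to 0.060, CCN1 from -0.11 to 0.072 and CCN2 from -0.078 to 0.11. The fold changes of the peaks with the smallest p changed sign in no fit, and lost or gained their call in 19 and 0 of 200 (cytokine) and 8 and 6 of 199 (belinostat) fits. The cause of these changes was not tested.

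Replicate numbers showed no pairing of the libraries. Deviations from the group means of same-numbered libraries correlated at -0.17 to 0.15 (mean -0.01, 2 of 18 pairs over 0.1). Other pairs ranged from -0.35 to 0.43, with 11 of 90 over 0.1. Their mean of 0.002 is held near 0 by the centring on group means, so it is no separate comparison. With the replicate block there were 12 opened and 49 closed (cytokine), 0 and 12 (belinostat) and 14 and 75 (residual) members and 2 lower loci (belinostat). Over all peaks these were 32344 and 34536, 1902 and 6230, and 54150 and 46357, with 1011 lower loci. Depth limits the weak peaks, since an average near 0 log2 CPM is a few counts per library.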
